A study of Mus musculus with 16 samples.

Results

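The cytosolic ribosomal protein genes were examined one by one in single nuclei of the mouse dentate gyrus (DG), in wild-type (WT) mice and in mice homozygous for the V321L mutation of Neuregulin 1. Members were the genes whose symbol starts with Rpl or Rps and a number, or with Rplp, leaving out names that hold "-ps" and the Rps6k kinases. This rule uses no measured value and found 85 of the 32285 genes in the files, 33 of them named for the small subunit and 52 for the large one. Genes such as Rpsa, Fau and Rack1, which also supply proteins of the cytosolic ribosome, fall outside the name rule, and Rps19bp1, which it takes in, encodes a protein that binds a ribosomal protein.

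The series held 8 Multiome libraries of nuclei from fresh-frozen, microdissected DG, 1 library per mouse, in which RNA and accessible chromatin were read from the same nuclei. There were 4 WT mice (genotype VV) and 4 V321L mice (genotype LL), with 2 females (F1, F2) and 2 males (M1, M2) of each genotype. The labels do not say that the numbers link a WT mouse to a V321L mouse. V321L is a missense change carried in every cell of these mice, so no driver or Cre limits it to a cell type, and the age of each mouse was not given in the labels used here. All barcodes were in the files, which allowed the nuclei to be set against barcodes of 21 to 200 UMIs (unique molecular identifiers, 1 per captured RNA molecule), which lie below the study's limit for nuclei and can hold free RNA, debris and small or broken nuclei.

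The libraries of the 2 genotypes differed before any single member was compared: ribosomal protein and mitochondrially encoded genes took a lower share of UMIs in every WT library than in any V321L library, in granule cells and in low-UMI barcodes alike. The labels used here do not say whether tissue handling or nuclei isolation differed between the genotypes, so the genotype and such a difference cannot be told apart in any comparison of V321L with WT. The libraries held 4326426 to 14624265 RNA UMIs in WT and 15505354 to 23582057 in V321L. Granule cells (GCs), the principal neurons of the DG, were gated by marker genes and numbered 1278 to 2405 per WT mouse and 805 to 1135 per V321L mouse. The summed level of their 7 markers, in UMIs per 1000000 (CPM), was 7440 to 8116 in the gated GCs of WT and 4668 to 5298 in those of V321L, against 439 to 953 in the gated GABAergic neurons and 1999 to 3717 in the gated oligodendrocytes. Mitochondrially encoded genes took 0.178 to 0.286% of the UMIs of WT GCs and 0.400 to 1.15% of those of V321L GCs, and any pair of libraries shared at most 13 barcodes of nuclei.

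Ribosomal proteins are made in the cytoplasm, imported into the nucleus and built with ribosomal RNA into the small and the large subunit, so that their mRNAs are among the most abundant of the cytoplasm while a nucleus holds mainly their new transcripts. Most of these mRNAs are TOP mRNAs: they start at a C followed by an unbroken run of pyrimidines (C or T), which links their translation to growth signals through mTOR. Many of the genes have processed copies elsewhere in the genome with nearly the same sequence, so reads of a member can be lost to, or gained from, a copy, and values of single members are uncertain to that degree.

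The starts of the genes at both ends of the range of change in GCs are printed here, since these 2 ends are what the comparison of members turns on. Each window holds the 35 bases before and the 25 bases from the annotated start on, 5′ to 3′, from RefSeq (GRCm38.p6, the build of mm10), with the longest pyrimidine run in capitals. The genes with the smallest change were Rpl7l1 (chr17:46782632-46782691, minus strand), Rps27l (chr9:66946051-66946110, plus strand), Rpl5 (chr5:107900493-107900552, plus strand), Rpl4 (chr9:64173352-64173411, plus strand) and Rps25 (chr9:44407679-44407738, plus strand).
Rpl7l1: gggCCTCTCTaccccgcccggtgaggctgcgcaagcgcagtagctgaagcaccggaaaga
Rps27l: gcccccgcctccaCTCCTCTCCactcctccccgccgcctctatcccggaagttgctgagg
Rpl5: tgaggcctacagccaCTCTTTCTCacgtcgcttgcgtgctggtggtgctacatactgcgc
Rpl4: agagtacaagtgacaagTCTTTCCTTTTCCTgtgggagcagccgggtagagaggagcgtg
Rps25: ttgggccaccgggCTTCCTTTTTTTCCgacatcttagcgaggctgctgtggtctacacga

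Of the 5 genes with the largest change, Rpl32 had no entry in the table used, and the other 4 were Rpl18 (chr7:45718036-45718095, plus strand), Rps16 (chr7:28350654-28350713, plus strand), Rps10 (chr17:27635220-27635279, minus strand) and Rpl28 (chr7:4792930-4792989, plus strand). The start of Rps10 in RefSeq lies 1425 bases from the start site in the files.
Rpl18: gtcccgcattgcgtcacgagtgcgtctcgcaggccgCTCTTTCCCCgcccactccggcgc
Rps16: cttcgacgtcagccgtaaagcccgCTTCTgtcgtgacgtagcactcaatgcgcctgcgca
Rps10: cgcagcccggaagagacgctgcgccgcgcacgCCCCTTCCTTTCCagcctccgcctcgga
Rpl28: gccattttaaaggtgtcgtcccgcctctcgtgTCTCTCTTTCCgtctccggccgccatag

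A pyrimidine run of 8 bases or more lay in the window of 35 of the 65 members with a RefSeq entry (53.8%), against 23.6% of the windows of all 27025 genes in that table. Where a member had several starts, the one nearest to the start site in the files was used, and for other genes the one of lowest position. The shares of members and of all genes thus rest on unlike choices of start. A run counted wherever it lay in the window, so these shares do not count TOP starts. Both ends of the range held windows with and without such a run: the run was 14 bases in Rpl4 and Rps25 and 7 in Rpl7l1, and 13 bases in Rps10 and 5 in Rps16. The letters CCGGAAG, searched on both strands in the whole 300 bases, were found in 35.4% of members and 9.08% of all genes, GGGCGG in 60% and 35.6%, and TATAAA in 9.23% and 14.1%. These are descriptions of letters, and 21 of the 65 annotated starts lay within 10 bases of the start site in the files, so a run placed off the true start may have been missed. Members with a run of 8 or more had a median log2 fold change in GCs of 3.60 (n = 34), and those with a shorter run 4.05 (n = 27).

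How much of the RNA of each kind of barcode the family took was described first. In GCs the ribosomal protein genes together took 0.0633% of UMIs in WT F1, 0.0481% in F2, 0.118% in M1 and 0.0618% in M2. In V321L GCs they took 1.73% in F1, 0.850% in F2, 0.897% in M1 and 1.83% in M2. The lowest V321L value was above the highest WT value, and the mean share was 0.0729% ± 0.0311 in WT and 1.33% ± 0.526 in V321L (SD, n = 4 each), a ratio of 18.2. With single WT mice left out, this ratio ran from 16.4 without WT F2 to 23.0 without WT M1. The exact 95% binomial interval, which covers counting error only, reached at most 4.55% of the value to either side in WT GCs and 1.08% in V321L GCs. In UMIs, a WT GC held 1.38 ± 0.285 of the family and a V321L GC 50.3 ± 11.2 (mean of the mouse means ± SD, n = 4). These numbers also carry the depth of the nuclei. The median of all RNA UMIs per GC was 1108 to 1989 in the WT mice and 3192.5 to 4632 in the V321L mice.

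In the barcodes of 21 to 200 UMIs the family stood far higher in both genotypes. It took 0.932%, 0.931%, 1.27% and 0.792% of UMIs in WT F1, F2, M1 and M2, and 10.4%, 9.80%, 10.9% and 11.0% in V321L F1, F2, M1 and M2. The mean share was 0.981% ± 0.203 in WT and 10.5% ± 0.533 in V321L (SD, n = 4 each), a ratio of 10.7. Mitochondrially encoded genes took 7.95 to 10.7% of these UMIs in WT and 14.2 to 22.8% in V321L. Within this window the family's share fell with the size of the barcode, in WT M1 from 1.65% at 21 to 50 UMIs to 0.867% above 100 UMIs and in V321L M1 from 11.5% to 10.1%; the part of small or broken nuclei in it was not tested. The family's level in GCs was thus 6.79%, 5.17%, 9.32% and 7.81% of its level in the low-UMI barcodes of the same library in WT, and 16.6%, 8.67%, 8.27% and 16.7% in V321L, each in the order F1, F2, M1, M2, and the highest WT value lay above the lowest V321L values.

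**Figure D1:**
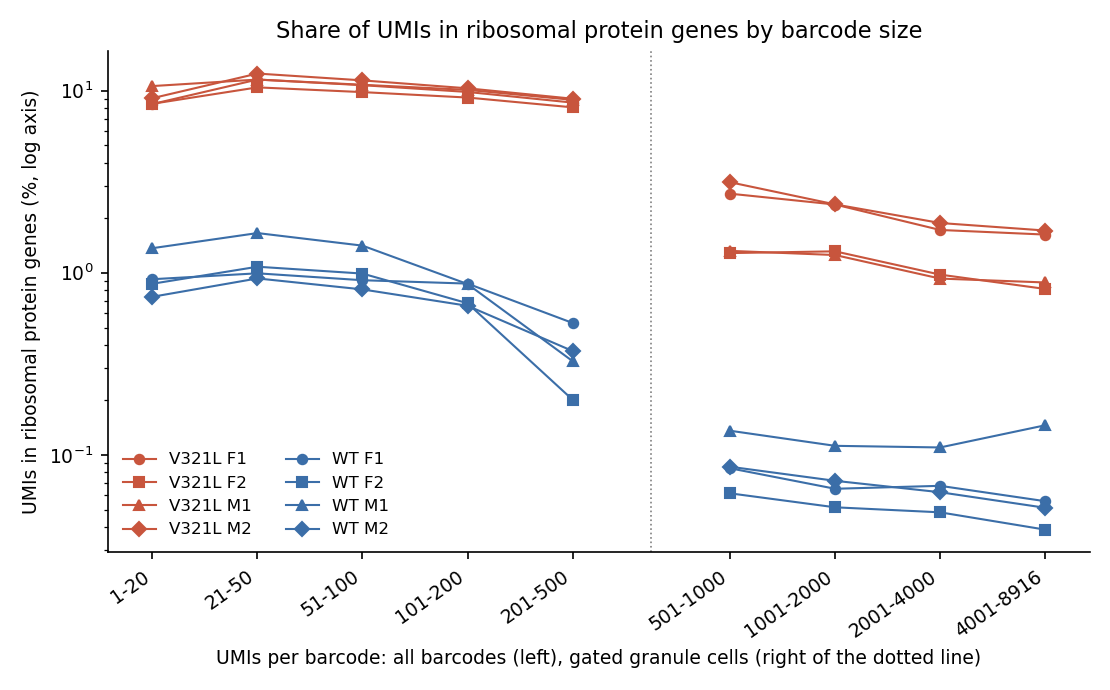
Percent of UMIs in the 85 ribosomal protein genes (log axis) by the number of UMIs per barcode, for all barcodes up to 500 UMIs and for gated granule cells above that, with 1 line per mouse. All V321L lines lie above all WT lines in every bin, and the share falls from barcodes of 21 to 50 UMIs to granule cells in all 8 mice; the smallest granule cell bin holds as few as 6 nuclei in a V321L mouse.

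Within GCs the family's share moved with both the size and the mitochondrial share of the nucleus. In GCs with under 0.25% mitochondrial UMIs, the family took 0.0421 to 0.0867% in WT and 0.607 to 1.22% in V321L. In GCs with 1% or more it took 0.137 to 0.295% in WT and 1.23 to 2.05% in V321L. The genotypes did not overlap in any of the 4 mitochondrial bins, and the part of free or cytoplasmic RNA in the difference was not tested. Beside it, the summed level of 7 astrocyte markers in GCs was 4.23 to 8.53% of their level in the low-UMI barcodes in WT and 14.5 to 24.7% in V321L, and at most 1 of these markers was at 0 in the GCs of a mouse. In CPM, however, these markers summed to 94.1 to 118 in WT GCs and 86.5 to 122 in V321L GCs. The GC gate bounds these astrocyte marker levels. It left out nuclei that passed the limits for astrocytes or did not hold more GC than astrocyte marker UMIs. These limits are set in UMIs, and V321L GCs held more UMIs than WT GCs. The effect of the gate on these values was not tested, and the same percentage for markers of other classes is not given here.

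Each member was then tested in GCs. UMIs were summed per mouse over its GCs, and V321L was compared with WT by edgeR's quasi-likelihood test with Benjamini-Hochberg adjustment over all genes tested. Of the 85 members, 81 passed the filter on low counts and all 81 were higher in V321L at an adjusted p under 0.05, beside 38.6% of all 12294 genes tested. Their median log2 fold change was 3.98, against 0.12 over all genes tested. With library sizes in place of TMM scaling the 2 medians moved to 4.44 and 0.56, and all 81 members were again higher, beside 54.0% of all genes. In 80 of the 81 the 4 V321L levels all exceeded the 4 WT levels, beside 48.4% of all genes tested, and Rps27l was the member whose groups overlapped. Because a member could pass the filter through its V321L counts alone, the test was repeated on genes that passed in the WT libraries alone, where 57 members remained and 57 were higher, beside 36.8% of all genes. Among those that dropped out were Rps27l and the genes with the largest changes, Rpl18, Rps16, Rps10, Rpl28 and Rpl32. The members that dropped out had entered the main test with the help of their V321L counts. The 4 members that did not pass were Rps27rt, with 4 UMIs over the WT GCs, Rpl10l with 2, Rpl3l with 1 and Rpl39l with none in either genotype.

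The estimated changes of the members were spread. Log2 fold changes ran from 1.34 to 5.57, with an interquartile range of 0.90 and an SD of 0.81 across members. The median standard error of a member was 0.32. The 32 small subunit genes tested had a median of 4.11 and the 49 large subunit genes one of 3.94. The spread and these medians include the members that did not pass the filter on WT libraries alone, among them the upper end of the range and Rps27l. Whether members differed from each other in their change was not tested. WT counts were thin throughout, with a median of 91 UMIs per member over all 6501 WT GCs and a maximum of 368. The whole family had 8547 UMIs there, against 198043 in 3940 V321L GCs.

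**Figure D2:**
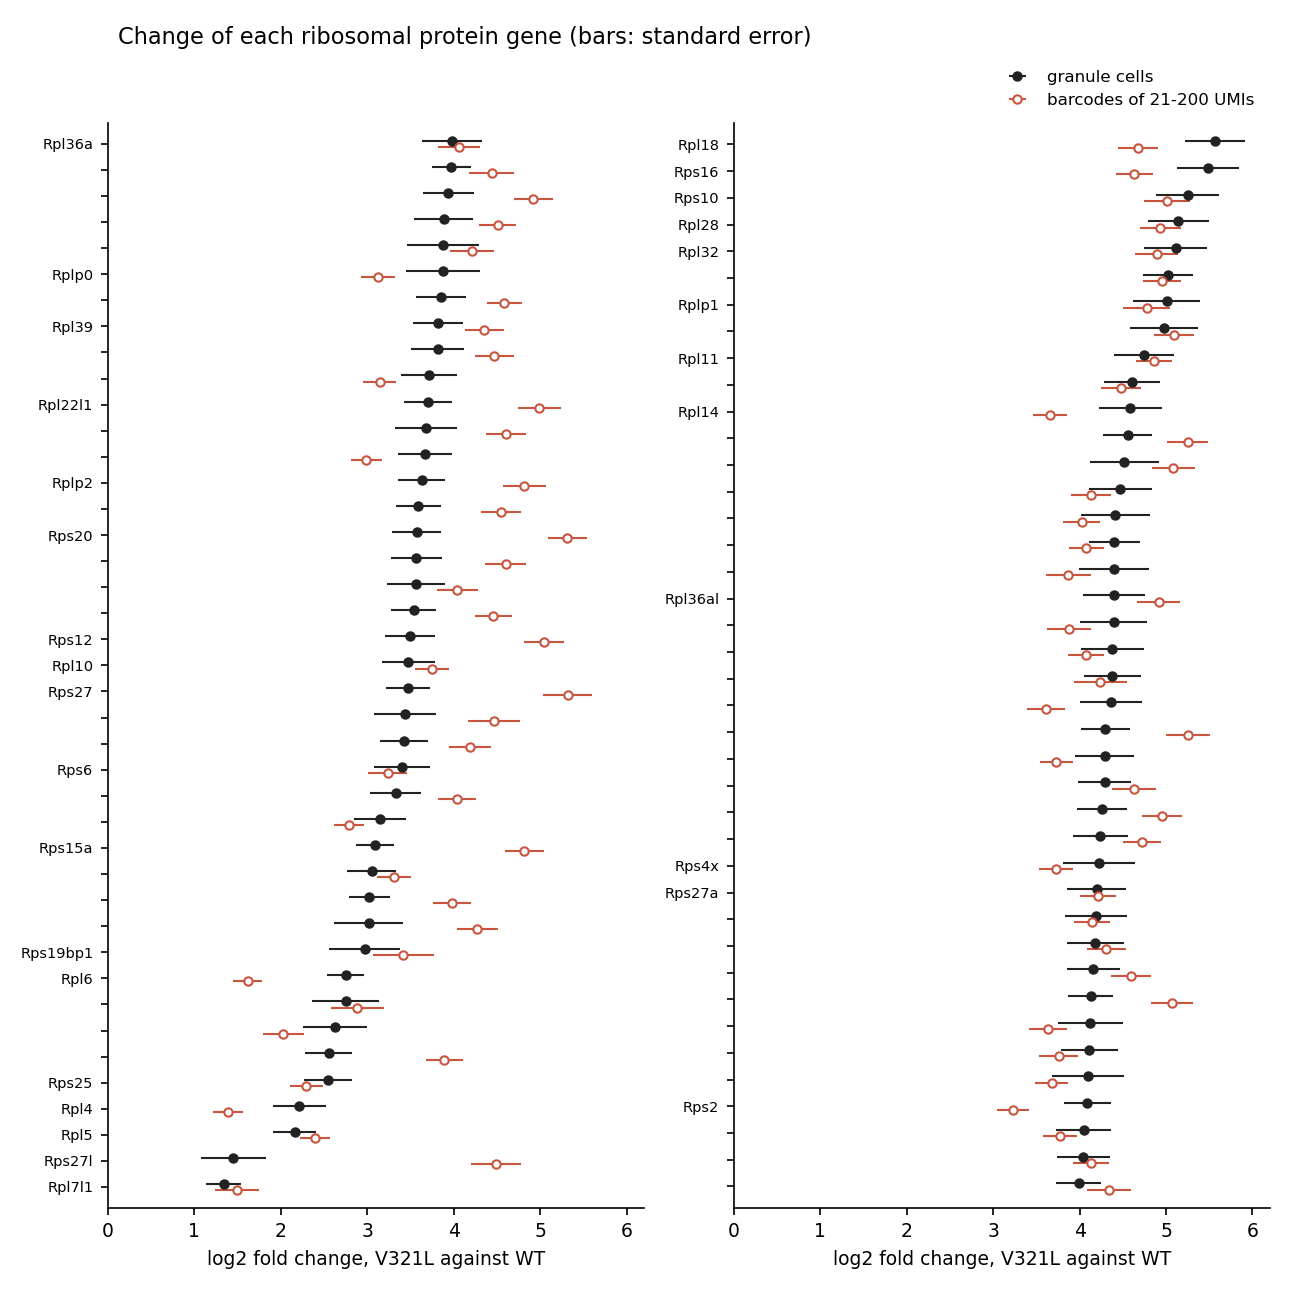
Log2 fold change of V321L against WT for the 81 ribosomal protein genes tested in granule cells (filled) and in barcodes of 21 to 200 UMIs (open), ordered by the change in granule cells, with bars of 1 standard error and names for the genes chosen for description. All values are above 0; they run from 1.34 for Rpl7l1 to 5.57 for Rpl18 in granule cells, and Rps27l has the widest gap between its 2 points.

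At the low end stood Rpl7l1 (ENSMUSG00000063888), a paralog of Rpl7 whose product works in the making of ribosomes. Its level in GCs was 8.94, 5.40, 12.8 and 5.80 CPM in WT F1, F2, M1 and M2 and 28.3, 26.6, 22.8 and 27.7 CPM in V321L. All V321L mice were above all WT mice, and its log2 fold change of 1.34 (standard error 0.21, edgeR adjusted p = 6.3e-05) was the lowest among the members tested. Rps27l, a p53 target and paralog of Rps27, had 2.47, 2.70, 6.10 and 3.32 CPM in WT and 18.6, 10.4, 5.69 and 16 CPM in V321L. The V321L M1 value fell below the WT M1 value, and the log2 fold change was 1.45 (standard error 0.38, edgeR adjusted p = 0.0037). In GCs with at most 0.5% mitochondrial UMIs it was 0.80 and did not pass.

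The other 3 at the low end were among the most abundant of the family in WT nuclei. Rpl5, which carries 5S ribosomal RNA into the large subunit and binds Mdm2, had 25.6, 18.9, 43.9 and 31.8 CPM in WT GCs and 207, 119, 128 and 248 in V321L GCs, a log2 fold change of 2.16 (standard error 0.25). Rpl4, a core large subunit protein, had 14.8, 11.8, 34.1 and 14.1 CPM in WT and 135, 63.8, 81.6 and 156 in V321L, a log2 fold change of 2.21 (standard error 0.31). Rps25, a small subunit protein used in internal initiation, had 18.8, 15.8, 26.8 and 18.2 CPM in WT and 214, 94.5, 97.1 and 212 in V321L, a log2 fold change of 2.55 (standard error 0.28). The groups of all 3 were well apart, with M1 the highest WT mouse each time.

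At the high end stood genes that were close to empty in WT nuclei. None of them passed the filter on WT libraries alone, so their calls describe the direction and lend it no support. Rpl18 (ENSMUSG00000059070) had 8, 6, 9 and 9 UMIs in the GCs of WT F1, F2, M1 and M2 and 793, 573, 436 and 644 in V321L, which is 2.47, 1.25, 5.49 and 2.49 CPM against 214, 106, 118 and 215. Its log2 fold change was 5.57 (standard error 0.34, edgeR adjusted p = 1.1e-07). Rps16, a small subunit protein whose tail reaches towards the decoding site, had 2.78, 2.70, 3.66 and 4.42 CPM in WT and 274, 119, 140 and 301 in V321L, a log2 fold change of 5.49 (standard error 0.36). Rps10 followed at 5.25 (standard error 0.36), Rpl28 at 5.14 (standard error 0.35) and Rpl32 at 5.11 (standard error 0.36). In WT GCs these 3 lay between 2.16 and 8.54 CPM and in V321L GCs between 108 and 313 CPM. A WT level of a few UMIs per mouse enters each of these folds, and across the 81 members the fold change ran against the WT level in GCs (Spearman's rho = -0.39), in which the same WT counts stand on both axes.

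The genes of the stalk proteins, which recruit elongation factors to the large subunit, had log2 fold changes of 3.63 to 5.01. Rplp1 was the most abundant member of V321L GCs, at 614, 277, 336 and 625 CPM against 10.8, 6.24, 26.8 and 5.53 in WT, a log2 fold change of 5.01 (standard error 0.39). Its partner Rplp2 had 178, 84.7, 96.0 and 169 CPM in V321L and 10.2, 6.03, 7.32 and 7.46 in WT, a change of 3.63 (standard error 0.27). Rplp0, which anchors both, changed by 3.87 (standard error 0.43), with 107, 47.5, 48.5 and 125 CPM in V321L and 3.08, 2.49, 11.0 and 3.04 in WT. The 3 were higher in every V321L mouse than in any WT mouse. Rplp0 did not pass the filter on WT libraries alone, so its call describes the direction and lends it no support.

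Rpl11, the partner of Rpl5 in the 5S particle, changed by 4.74 in log2 (standard error 0.35), with 4.32, 4.37, 11.6 and 5.80 CPM in WT and 278, 142, 129 and 314 in V321L. Rpl5 was thus among the lowest 5 of the family, and Rpl11 lay above its middle 50% (3.47 to 4.38). Rps6, the substrate of S6 kinase downstream of mTOR, changed by 3.40 (standard error 0.32), from 5.61 to 11.0 CPM in WT to 64.5 to 156 in V321L. Rps27a, which is made as a fusion with ubiquitin, changed by 4.20 (standard error 0.35), from 9.54 ± 3.58 CPM in WT to 230 ± 102 in V321L (mean ± SD, n = 4 each).

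The 4 X-linked members changed by 3.47 to 4.22. Rps4x changed by 4.22 (standard error 0.42), Rpl10 by 3.47 (standard error 0.30), Rpl36a by 3.98 (standard error 0.34) and Rpl39 by 3.82 (standard error 0.29), all in log2. Among the autosomal paralogs, Rpl22l1 changed by 3.71 (standard error 0.28) and Rpl36al, a retrocopy of Rpl36a with which it can share reads, by 4.4 (standard error 0.36). Rps19bp1 changed by 2.97 (standard error 0.41), from 0.416 to 0.925 CPM in WT to 4.99 to 9.98 in V321L. Of the genes in this paragraph, Rps4x and Rpl10 passed the filter on WT libraries alone. Rpl36a, Rpl39, Rpl22l1, Rpl36al and Rps19bp1 did not, so their calls describe the direction and lend it no support. No member's change in GCs passed as different between females and males in edgeR's interaction test, where 0.0% of all genes passed. With 2 mice per sex and genotype, this does not show that the sexes changed alike.

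In the WT mice 73 of the 81 members tested were highest in M1, the mouse with the fewest RNA UMIs. In V321L GCs the highest level was in M2 for 59 members and in F1 for 22, and the lowest was in F2 for 50 and in M1 for 31. The mitochondrial share of GC UMIs was highest in V321L M2, at 1.15%, and lowest in V321L F2, at 0.400%. The members thus shared their order over the V321L mice in large part, and its source was not tested.

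The same test was run on the barcodes of 21 to 200 UMIs. Here 82 members passed the filter and 82 were higher in V321L, beside 39.1% of all 10541 genes tested, and the V321L levels all exceeded the WT levels in all 82, beside 25.9% of all genes. With the filter on WT libraries alone, 71 members were left and 71 were higher, beside 36.7%. The median log2 fold change was 4.26, against 0.12 over all genes tested. With library sizes these medians were 3.70 and -0.41, and all 82 were again higher, beside 28.4% of all genes. With TMM scaling the values ran from 1.39 for Rpl4 to 5.32 for Rps27, the small subunit protein of which Rps27l is a paralog.

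Rpl4 had 360, 243, 255 and 278 CPM in the low-UMI barcodes of WT F1, F2, M1 and M2 and 494, 470, 515 and 560 in those of V321L, which is a log2 fold change of 1.39 (standard error 0.17) and with library sizes 0.83. Rpl6, another large subunit protein, had 581, 514, 593 and 534 CPM in WT and 1185, 1108, 1109 and 1275 in V321L, which is 1.62 (standard error 0.17) and with library sizes 1.06. Rps27 had 30.2, 12.8, 35.9 and 9.83 CPM in WT and 498, 522, 690 and 521 in V321L, a log2 fold change of 5.32 (standard error 0.28). The groups of the 3 genes did not overlap. Rps27 did not pass the filter on WT libraries alone, so its call describes the direction and lends it no support. The low-UMI barcodes of WT held 34393 barcodes and 17649 UMIs of the family, those of V321L 231281 barcodes and 1702121 UMIs.

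The make-up of the family differed between the genotypes as well as its size. In WT low-UMI barcodes Rpl6 led, with 5.79% ± 0.901 of the family's UMIs (SD, n = 4), followed by Rpl29 with 5.07% ± 1.42 and Rps25 with 4.02% ± 0.995. In V321L low-UMI barcodes Rplp1 led with 4.32% ± 0.139, and Rpl13 had 2.44% ± 0.137. The same gene led in GCs of each genotype: Rpl6 at 4.27% ± 0.709, ahead of Rpl5 at 4.21% ± 0.639, in WT, and Rplp1 at 3.49% ± 0.209 in V321L. Across the 81 members, Spearman's rho of the mean shares was 0.72 between GCs and low-UMI barcodes of WT and 0.87 between those of V321L. Between the genotypes it was 0.54 in the low-UMI barcodes and 0.56 in GCs. Shares within a kind of barcode come from the same libraries, and the WT shares carry more counting error than the V321L shares. These shares count UMIs and are not scaled to transcript length.

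The fold changes of the 2 kinds of barcode ran together only in part. Across the 81 members the log2 fold change in GCs and that in low-UMI barcodes had a Spearman's rho of 0.44, both taken from the same 8 libraries. The fold change in GCs had a rho of 0.47 with the V321L level in low-UMI barcodes and of 0.03 with the WT level there. The low-UMI level itself went with the GC level, with a rho of 0.86 in V321L and 0.74 in WT. Those GC levels form the fold change, so the 2 rhos are not free of it and show no source of the change. With the length of the gene the fold change in GCs had a rho of -0.15.

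Whether a member's change from WT to V321L differed between GCs and low-UMI barcodes was tested directly, with the mouse as a block and the interaction of genotype and kind of barcode as the term (edgeR). After TMM scaling, the change in GCs was the lower one for 29 of 82 members, beside 18.1% of all 13703 genes tested, and the higher one for 1, beside 8.03%. This direction depended on the scaling. With library sizes alone it was lower for 3 members, beside 2.74% of all genes, and higher for 41, beside 56.1%. The median difference of the members was -0.66 and that of all genes -0.17 with TMM, and 0.72 and 1.22 with library sizes, so relative to all genes the members lay lower in GCs by 0.49 and 0.50 on the log2 scale.

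The same members stood lowest on both scales. Rps27l had a difference of -3.49 (standard error 0.49, adjusted p = 2.1e-06), and -2.10 with library sizes. Its level in low-UMI barcodes was 3.28 to 9.32 CPM in WT and 86.8 to 116 in V321L, on 12 UMIs in WT in all, whereas in GCs it was 2.47 to 6.10 and 5.69 to 18.6. Rps27, Rps20, Rps15a and Rps12 had differences of -2.24, -2.18, -2.17 and -2.05, and with library sizes of -0.86, -0.80, -0.78 and -0.67. Rps27l and Rps27 did not pass the filter on WT libraries alone in either kind of barcode. Their differences thus describe the direction and lend it no support. Rps27rt, with the 4 WT UMIs in GCs given above, had a value of -3.07 (standard error 1.43, edgeR adjusted p = 0.12), which did not pass. Under library sizes Rps27l, Rps20 and Rps15a were the members that passed as lower.

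The levels behind the test are given for Rps15a, which was picked by its difference, so they add no support to it. Its level in GCs was 12.6, 8.52, 14.6 and 11.3 CPM in WT F1, F2, M1 and M2, and 62.9, 72.2, 46.7 and 42.6 CPM in the low-UMI barcodes of the same mice. In V321L it was 162, 102, 95.7 and 174 CPM in GCs and 1171, 1025, 1215 and 1197 in low-UMI barcodes. The GC level was therefore 11.8 to 31.3% of the low-UMI level in WT and 7.88 to 14.5% in V321L. Rps20 gave 13.6 to 24% in WT and 6.81 to 13.7% in V321L. The ranges of WT and V321L overlapped for both genes. The minimum of 20 UMIs used below for this percentage was not applied here. Rps15a lay under it in the low-UMI barcodes of WT M1 and M2, so the upper end of its WT range rests on few UMIs.

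Rpl6 went the other way. Its GC level was 3.93, 4.66, 7.41 and 5.54% of the low-UMI level in WT and 27.8, 18.7, 17.2 and 26.5% in V321L, without overlap. Rpl6 was also picked by its difference, which rests on the same counts, so these percentages add no support to it. Its difference of 0.72 (standard error 0.25, adjusted p = 0.030) was the one that passed as higher, and it was 2.09 with library sizes. It no longer passed without WT F1 (0.65), WT F2 (0.73) or V321L F1 (0.69). Rpl18, Rpl14, Rps2 and Rpl4 followed with TMM differences of 0.45, 0.41, 0.41 and 0.39 (standard errors 0.35, 0.33, 0.29 and 0.27), none past the threshold, although Rpl4 passed at 0.79 without WT M1.

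**Figure D3:**
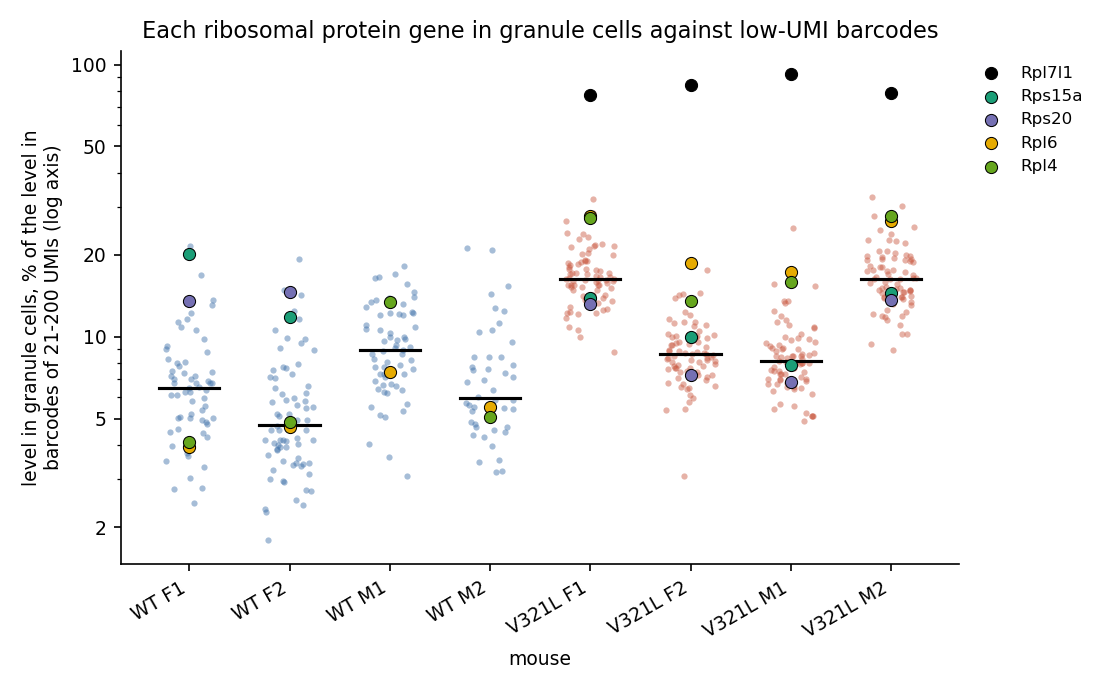
Level of each ribosomal protein gene in granule cells as percent of its level in barcodes of 21 to 200 UMIs of the same mouse (log axis), for genes with at least 20 UMIs in those barcodes; the bar is the median and 5 genes are coloured. The medians are 4.75 to 8.96% in WT and 8.12 to 16.3% in V321L, Rpl7l1 sits far above the rest in V321L, and Rpl6 sits below the median in all 4 WT mice and above it in all 4 V321L mice. Rpl6 was picked by its difference between the kinds of barcode, so its place adds no support to that difference.

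Over the members with at least 20 UMIs in the low-UMI barcodes of a library, the median of this percentage was 6.50, 4.75, 8.96 and 5.95 in WT F1, F2, M1 and M2 (46 to 76 members), and 16.3, 8.61, 8.12 and 16.3 in V321L (82 members). The highest WT value overlapped the lowest V321L values. Rpl7l1 was the highest member of all 4 V321L libraries, at 77.4 to 92.3%, while the middle 50% of the members lay between 6.98 and 19.5% over those libraries. In WT, where it had 30 UMIs in the low-UMI barcodes in all, it was at 35.4 to 59.4%.

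The other gated classes had few nuclei in WT. Oligodendrocytes numbered 14 to 44 per WT mouse and 111 to 203 per V321L mouse, astrocytes 16 to 139 and 62 to 176, microglia 2 to 14 and 50 to 86, and GABAergic neurons 33 to 81 and 28 to 43. WT M1, with 2 microglia, was left out of that class. Markers of each of these classes were among its 10 leading genes. Examples were Mog in oligodendrocytes, Gja1 in astrocytes, C1qa and Csf1r in microglia and Gad2 in GABAergic neurons. The 10 leading genes of GCs held none of the GC markers. In the gated oligodendrocytes, GABAergic markers summed to 1263 to 3118 CPM, beside 8629 to 31608 CPM for their own markers.

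The family's share of UMIs was higher in V321L in all 4 classes, with no overlap between mice. It was 0.0868% ± 0.0195 in WT and 1.43% ± 0.498 in V321L oligodendrocytes, and 0.120% ± 0.0992 and 1.32% ± 0.496 in astrocytes (SD, n = 4 each). It was 0.0948% ± 0.0310 (n = 3) and 1.86% ± 0.558 (n = 4) in microglia, and 0.0601% ± 0.0217 and 0.894% ± 0.373 in GABAergic neurons (n = 4 each). The ratios of the means were 16.4, 11.1, 19.7 and 14.9. The astrocyte ratio rested on WT M1, at 0.268% with 16 astrocytes, and was 18.8 without that mouse. Without WT M1 the ratio was 18.2 in GABAergic neurons and 17.7 in oligodendrocytes. In microglia it ran from 17.2 without WT M2 to 23.9 without WT F1. The WT shares rested on 105, 293, 29 and 317 UMIs of the family in all, so single members could hardly be resolved: 38 members had no UMI in WT oligodendrocytes and 62 none in WT microglia, and a count of 0 allows up to 3 UMIs. The mitochondrial share was 0.134 to 0.229% in WT and 0.487 to 1.37% in V321L GABAergic neurons, and 0.184 to 0.475% and 0.980 to 1.62% in oligodendrocytes. In astrocytes the genotypes overlapped, at 0.255 to 1.02% and 0.922 to 1.46%.

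**Figure D4:**
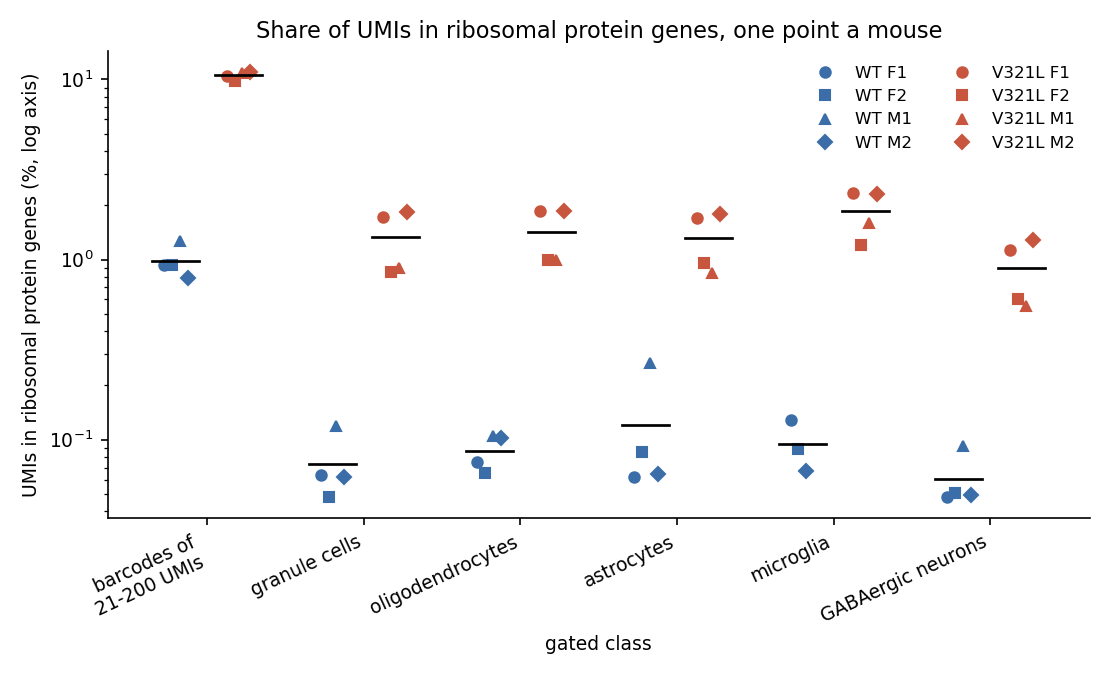
Percent of UMIs in the 85 ribosomal protein genes (log axis) in barcodes of 21 to 200 UMIs and in each gated class, 1 point per mouse, with the mean as a bar; microglia of WT M1 are left out. V321L mice lie above WT mice in each class, and in low-UMI barcodes both genotypes are above their own nuclei.

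By gene, 36 of 36 members tested were higher in V321L oligodendrocytes, beside 17.3% of all genes tested, 46 of 46 in astrocytes, beside 22.9%, 34 of 35 in microglia, beside 14.1%, and 37 of 37 in GABAergic neurons, beside 17.0%. All of these members passed the filter through their V321L counts, since none passed on the WT libraries alone, so the counts describe the direction and lend it no support. They moved by over 1.5 times in oligodendrocytes, microglia and GABAergic neurons when single mice were left out, down to 2 of 2 members in oligodendrocytes without V321L F1, F2 or M2 and 1 of 1 in microglia without V321L F1, M1 or M2. Rplp1 had the most UMIs of the family in V321L in each of the 4 classes, from 166 in microglia to 388 in astrocytes. In WT the leaders were Rps25 in oligodendrocytes, with 8 UMIs, Rpl6 in astrocytes, with 13, Rpl7a in microglia, with 2, and Rpl6 in GABAergic neurons, with 15.

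No member's change passed as different between GCs and another class at an adjusted p under 0.05 in the interaction fit (edgeR). Of all genes, 0.593% passed that threshold for oligodendrocytes, 0.468% for astrocytes, 1.83% for microglia and 1.0% for GABAergic neurons. The median difference of the members, GCs minus the other class, was -0.82 for oligodendrocytes, -0.10 for astrocytes, -6.07 for microglia and 0.16 for GABAergic neurons. In WT microglia 62 members had no UMI, so the lack of calls does not show that the classes changed alike. What size of difference could have been detected was not tested.

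Chromatin at the promoters was measured in the same GCs, as ATAC counts in peaks within 1000 bases of each start site. Of 79 members tested, none passed as different between V321L and WT in edgeR's test, beside 0.017% of all 11737 genes. The lack of calls does not show that the promoters were alike. Promoter log2 fold changes of the members ran from -0.31 for Rps29 to 0.23 for Rpl22 with a median of -0.07, against 0.002 over all genes tested. Across the members the promoter change and the RNA change in GCs had a Spearman's rho of -0.03 (n = 79). Rpl18 and Rps16, at the high end for RNA, had promoter changes of 0.07 and 0.07, and Rpl7l1 and Rps27l, at the low end, of -0.04 and -0.14.

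**Figure D5:**
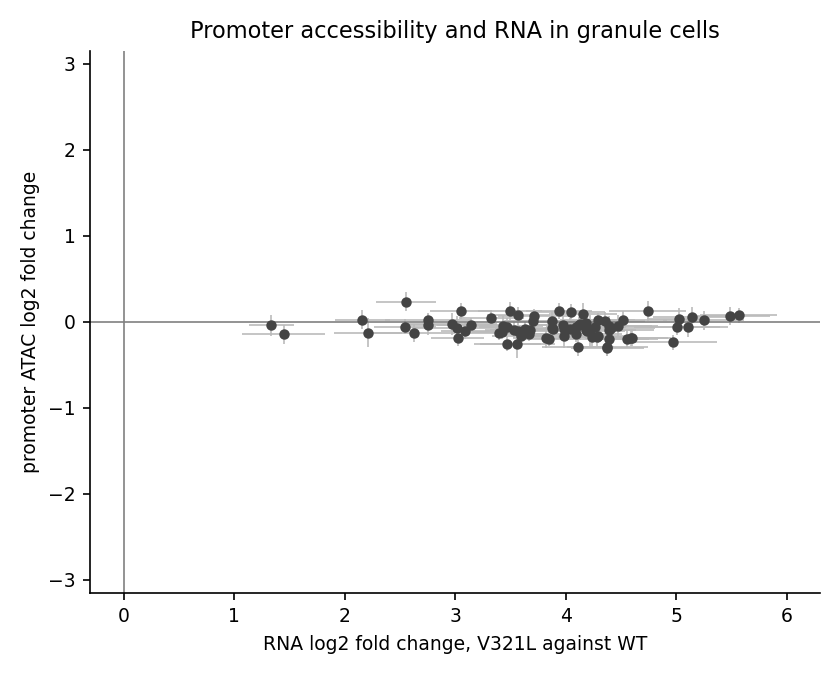
Log2 fold change of promoter ATAC counts against that of RNA in granule cells, V321L against WT, for 79 ribosomal protein genes, with bars of 1 standard error. RNA changes spread from 1.34 to 5.57 while promoter changes stay between -0.31 and 0.23.

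Genes that share a feature with the family were taken as lists, to be read beside the 38.6% of all genes tested that were higher and the 31.5% that were lower in V321L GCs, and the 39.1% and 34.1% in low-UMI barcodes. With library sizes these shares were 54.0% and 17.2% in GCs and 28.4% and 45.8% in low-UMI barcodes. Of 17 other TOP mRNAs, 15 were higher in V321L GCs and 1 was lower, with a median log2 fold change of 2.34. Fau, which encodes the ribosomal protein eS30, changed by 4.89 (standard error 0.42), which lies within the range of the members. Eef1a1, the elongation factor that brings tRNA to the ribosome, changed by 2.34 (standard error 0.25), whereas Eif3e, a subunit of initiation factor 3, fell by 0.60 in log2 (standard error 0.14), a call that was lost with library sizes, at -0.15. In low-UMI barcodes 16 of the 17 were higher and none lower, with a median of 2.45. With library sizes 15 were higher and none lower in GCs, and 14 higher and 1 lower in low-UMI barcodes.

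Of 18 genes of ribosome biogenesis, 11 were higher and 2 lower in V321L GCs, with a median log2 fold change of 0.76. Nop10 and Nhp2, small proteins of the particles that modify ribosomal RNA, changed by 3.41 (standard error 0.25) and 4.57 (standard error 0.59), while Nop58 had a value of -0.23 and Polr1a, the largest subunit of RNA polymerase I, of 0.15, neither past the threshold. With library sizes Nop58 turned to 0.22 and Polr1a passed at 0.60. In low-UMI barcodes 10 of 17 tested were higher and 3 lower. The split depended on the scaling: with library sizes 15 were higher and none lower in GCs, and 4 higher and 5 lower in low-UMI barcodes.

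Of 78 genes of mitochondrial ribosomal proteins, which are encoded in the nucleus, 67 were higher and 3 lower in V321L GCs, with a median of 1.83, and 76 were higher and none lower in low-UMI barcodes, with a median of 3.30. With library sizes 71 were higher and 2 lower in GCs, and 74 higher and none lower in low-UMI barcodes. Their level in GCs was 58.8 to 69.3% of that in low-UMI barcodes in WT and 31.0 to 32.7% in V321L. Of the 13 mitochondrially encoded mRNAs, 8 were higher and 4 lower in GCs, with a median of 0.70, and with library sizes 9 were higher and 2 lower. Their level in GCs was 1.73 to 3.60% of that in low-UMI barcodes in WT and 2.21 to 8.09% in V321L. The cytosolic family lay between these 2 lists, at 5.17 to 9.32% and 8.27 to 16.7%.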

How the data were processed

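The deposited files hold, for every barcode, the counts of RNA UMIs per gene and of ATAC counts per peak, as the authors obtained them with cellranger-arc 2.0.2 on mm10 and not normalized. Peaks were called per library. The submitters' processing notes also name Seurat and Signac. The limits the study set on nuclei in its RNA analysis were applied here: 500 to 8916.1 UMIs, 250 to 3307.526 genes and under 2.787142% mitochondrial UMIs. At least 500 ATAC counts in peaks were required as well. The study's own ATAC limit was set on fragments, in its ATAC analysis. Nuclei with a Scrublet score (scanpy 1.11.5) above the library mean plus 2 SD were removed. GCs needed 3 UMIs over 2 of their markers, more than of any other class, and no other class passing its own limits, and other classes 4 UMIs over 3 markers and at least 2 times those of any other class. This ratio was set after marker levels had been seen.

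Counts were summed per mouse and tested with edgeR 4.0.16 (R 4.3.3; TMM, filterByExpr, quasi-likelihood, adjusted p under 0.05), with DESeq2 1.42.0 as an alternative; the code was tested on simulated data. CPM values, shares and ratios come from the summed counts. Within a kind of barcode, the libraries of the 8 mice are the replicates. Members and lists were chosen with earlier results of these data known. Genes named were the 5 at either end of the change in GCs and of the difference between GCs and low-UMI barcodes among members that passed the filter in GCs, which leaves out Rps27rt, the stalk proteins, Rpl5, Rpl11, Rps6, Rps27a, the X-linked members and all paralogs; genes of other lists were picked as examples after their values were seen. Oligodendrocyte precursors and other excitatory neurons had too few WT nuclei to test. Some genes are not reported here by name. Promoter ATAC counts of Rps14 and Rpl17 were not analysed here. Sequences are from RefSeq, GRCm38.p6; 65 of 85 members matched. Alternatives were another scaling, no filter, a filter on WT libraries alone (chosen after seeing the data), each WT mouse left out of the mean share (also chosen after seeing the data), thinning to 1000 UMIs, doublets kept, a lower mitochondrial limit, other UMI windows, a stricter gate, a replicate block and leaving out each mouse.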

Additional observations from a re-analysis of the deposited data

Results flagged for a closer look

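With TMM scaling (edgeR), the change from WT to V321L was lower in GCs than in barcodes of 21 to 200 UMIs for 29 of 82 members. This stood beside 18.1% of all genes. The lowest of those called, picked by this difference, were Rps27l at -3.49, Rps27 at -2.24, Rps20 at -2.18, Rps15a at -2.17 and Rps12 at -2.05 (log2). Rpl6, at 0.72, was the only member called higher, beside 8.03% of all genes. With library sizes 41 members passed as higher, and only Rps27l, Rps20 and Rps15a as lower. The call of Rpl6 was lost without WT F1, WT F2 or V321L F1, with the larger low-UMI barcodes alone, and after thinning. Rps27l and Rps27 did not pass the filter on WT libraries alone, so their calls lend the difference no support.

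In groups of 4 mice, 1 mouse stood apart from the other 3 by Dixon's criterion, which chance alone meets in about 1 of 20 groups, for 13 values. It was run on the family's shares and on the named genes in both kinds of barcode and both genotypes, so chance can give some of these values. WT M1 was the highest WT mouse for 73 of the 81 members tested in GCs, so its values below are not separate findings. WT M1 was the high one for the family's share in GABAergic neurons (0.0927%) and in astrocytes (0.268%), and for the GC levels of Rpl4 at 34.1 CPM, Rplp0 at 11.0, Rps10 at 8.54, Rpl36a at 6.10, Rpl36al at 5.49 and Rpl39 at 5.49. In low-UMI barcodes the same mouse was high for Rplp0 at 151 CPM, whereas WT M2 was low for Rpl5 at 206 CPM. Among V321L mice, low-UMI barcodes of F2 were low for Rplp2 at 969 CPM and Rps20 at 1371 CPM, and those of M1 were high for Rps27 at 690 CPM. The cause of these values was not tested.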

How the results depend on the processing

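The number of members higher in V321L GCs stayed within 1.5 times of 81 under each alternative run, from 57 with the filter on WT libraries alone (chosen after seeing the data, and with fewer genes tested) to 82 without a filter, and that in low-UMI barcodes from 71 to 82. With the filter on WT libraries alone, 36.8% of all genes were higher in GCs and 36.7% in low-UMI barcodes. The difference between GCs and low-UMI barcodes depended on the settings. With library sizes 41 members passed as higher, beside 56.1% of all genes, and 3 as lower, beside 2.74%. The number higher was 3 with barcodes of 21 to 50 UMIs. It was 0 with barcodes of 51 to 200 UMIs or after thinning to 1000 UMIs. It ran from 0 to 2 when single mice were left out. The shares of all genes under the other alternatives are not given here, so those counts alone say nothing particular to the family. The TMM difference of Rpl4 turned from 0.39 to -0.0034 with barcodes of 51 to 200 UMIs. The difference of Rpl6 no longer passed with barcodes of 51 to 200 UMIs (0.56) or after thinning (0.70). Rps27l in GCs no longer passed with a mitochondrial limit of 0.5%, at 0.80.

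Leaving out single mice moved the numbers higher in the small classes, where the filter then passed other numbers of members. They ran from 2 to 67 in oligodendrocytes, 1 to 23 in microglia, 33 to 63 in GABAergic neurons and 41 to 68 in astrocytes. The shares of all genes in these fits are not given here. In the main fits the members of these classes passed through their V321L counts, so the numbers lend the direction no support. Leaving out a V321L mouse left 2 to 4 oligodendrocyte members to test, and leaving out a WT mouse 70; in microglia, 54 were tested without a WT mouse and 19 to 23 of them passed, and the cause was not tested. A stricter gate for microglia was not run, having too few WT nuclei. With the replicate names as a replicate block 81 members were higher in GCs. The correlations of same-named mice were 0.056, 0.248, -0.117 and 0.020 for F1, F2, M1 and M2, which cannot settle whether the names pair the mice. No difference between classes or sexes and no promoter passed under any alternative run. Thin WT counts limit every fold.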
